A study of Mus musculus with 62 samples.

Results

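The genes described here are 10 markers of the microglial state found around amyloid plaques: Cst7, Itgax, Clec7a, Axl, Csf1, Spp1, Cd9, Gpnmb, Lpl and Lgals3. They were listed by gene symbol, with earlier results of these data known, and make up 10 of the 53975 genes in the deposited abundance tables. Microglia are the resident phagocytes of the brain. Where they touch an amyloid plaque they take on an activated state, in which they turn on genes for debris uptake, lysosomal digestion, lipid handling and secreted signals, and in which several genes of resting microglia are turned down. Entry into the full state is known to need the lipid receptor TREM2 and its signalling adaptor TYROBP.

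The mice carried the APP NL-G-F allele, a knock-in of a humanised and mutated App gene under its own promoter (called APP here), or were wild type C57BL/6J mice (called WT). They were 3, 6 or 12 months old, ages that the study design places before plaques are detectable, at the onset of symptoms and plaques, and at the terminal stage. Long RNA from the hippocampi of both sides was sequenced after depletion of ribosomal RNA, 1 library per mouse. Each group held 3 mice, except the WT group of 3 months, which held 2. The second system was HT-22, a mouse hippocampal cell line at passage 4. The cells were first treated for 24 h with a locked nucleic acid (LNA), either 1 that targets Hsf1 (150 nM) or a scramble control (50 uM, the dose the labels give). After that they received amyloid beta 1-42 (Aβ42) or the peptide of reversed sequence, both at 30 uM. There were 4 libraries for each peptide with the scramble LNA and 3 for each peptide with the anti-Hsf1 LNA, which the study design calls biological replicates without naming separate cultures, so p-values there measure the spread between these libraries. Every HT-22 library received an LNA and a peptide, so the cells have no untreated group.

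Levels are TPM (a share of all transcripts, corrected for gene length) divided by a median-of-ratios factor per library, called scaled TPM, with mouse factors of 0.692 to 1.468 and HT-22 factors of 0.641 to 1.242. Read totals are not used here, and the average coverage of a gene at an FPKM of 1 was 1.42 to 3.04 in the mouse libraries and 0.724 to 2.60 in those of HT-22. Neuronal markers were high in every mouse library (8 genes, summed scaled TPM 1641 to 2798), the lowest being APP replicate 1 at 3 months, which also had the highest choroid plexus marker sum (2422). In HT-22 cells the same 8 neuronal markers summed to 1.26 at most and 5 of the 8 were listed at 0 in every library, while fibroblast markers (7 genes) summed to between 2460 and 4226. Sex is not in the labels: Xist was between 70.6 and 137 in all APP libraries and both 3-month WT libraries, and at most 0.518 in the WT libraries of 6 and 12 months, where the Y-linked Ddx3y was between 18.4 and 28.0. At 6 and 12 months genotype therefore cannot be told apart from this difference, whereas the comparisons of ages within APP and the genotype comparison at 3 months lie within libraries that have Xist. In the libraries labelled anti-Hsf1, Hsf1 was between 42.7 and 52.2, against 42.8 to 71.2 in the scramble libraries, ranges that overlap. The change of Hsf1 was -0.37 with Aβ42 and -0.15 with the reversed peptide (limma adjusted p 0.527 and 0.959), so the targeted gene gave no check of the LNA labels that passed the test.

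At 12 months, 7 of the 10 genes passed the test as higher in APP than in WT: Cst7, Clec7a, Itgax, Gpnmb, Spp1, Cd9 and Csf1 (limma, adjusted p below 0.05). Over all 17840 genes tested 0.432% were called higher, and 0.0224% lower. All 10 were on the higher side, 9 of them without overlap between the groups (all but Lgals3; 8.81% of all genes tested), with a median log2 change of 1.56, against a median of 0.00 over all genes tested. Beyond the genotype comparison, the 3 libraries of 12-month APP mice lay above all 14 other mouse libraries for 8 of the 10, the exceptions being Lpl and Lgals3, and 1.26% of all genes tested did so. The largest changes belonged to the genes that were nearly silent in WT. All 10 genes passed the filter of a mean TPM of at least 1, but Cst7, Itgax and Clec7a stayed under 1 in every WT library and passed it through the APP libraries. Lgals3 also depended on them: without APP replicate 1 of 12 months it fell below the filter, and 9 of the 10 genes were tested. Of the 7 genes other than Cst7, Itgax and Clec7a, 4 were called, and Lgals3 was not among these.

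**Figure D1:**
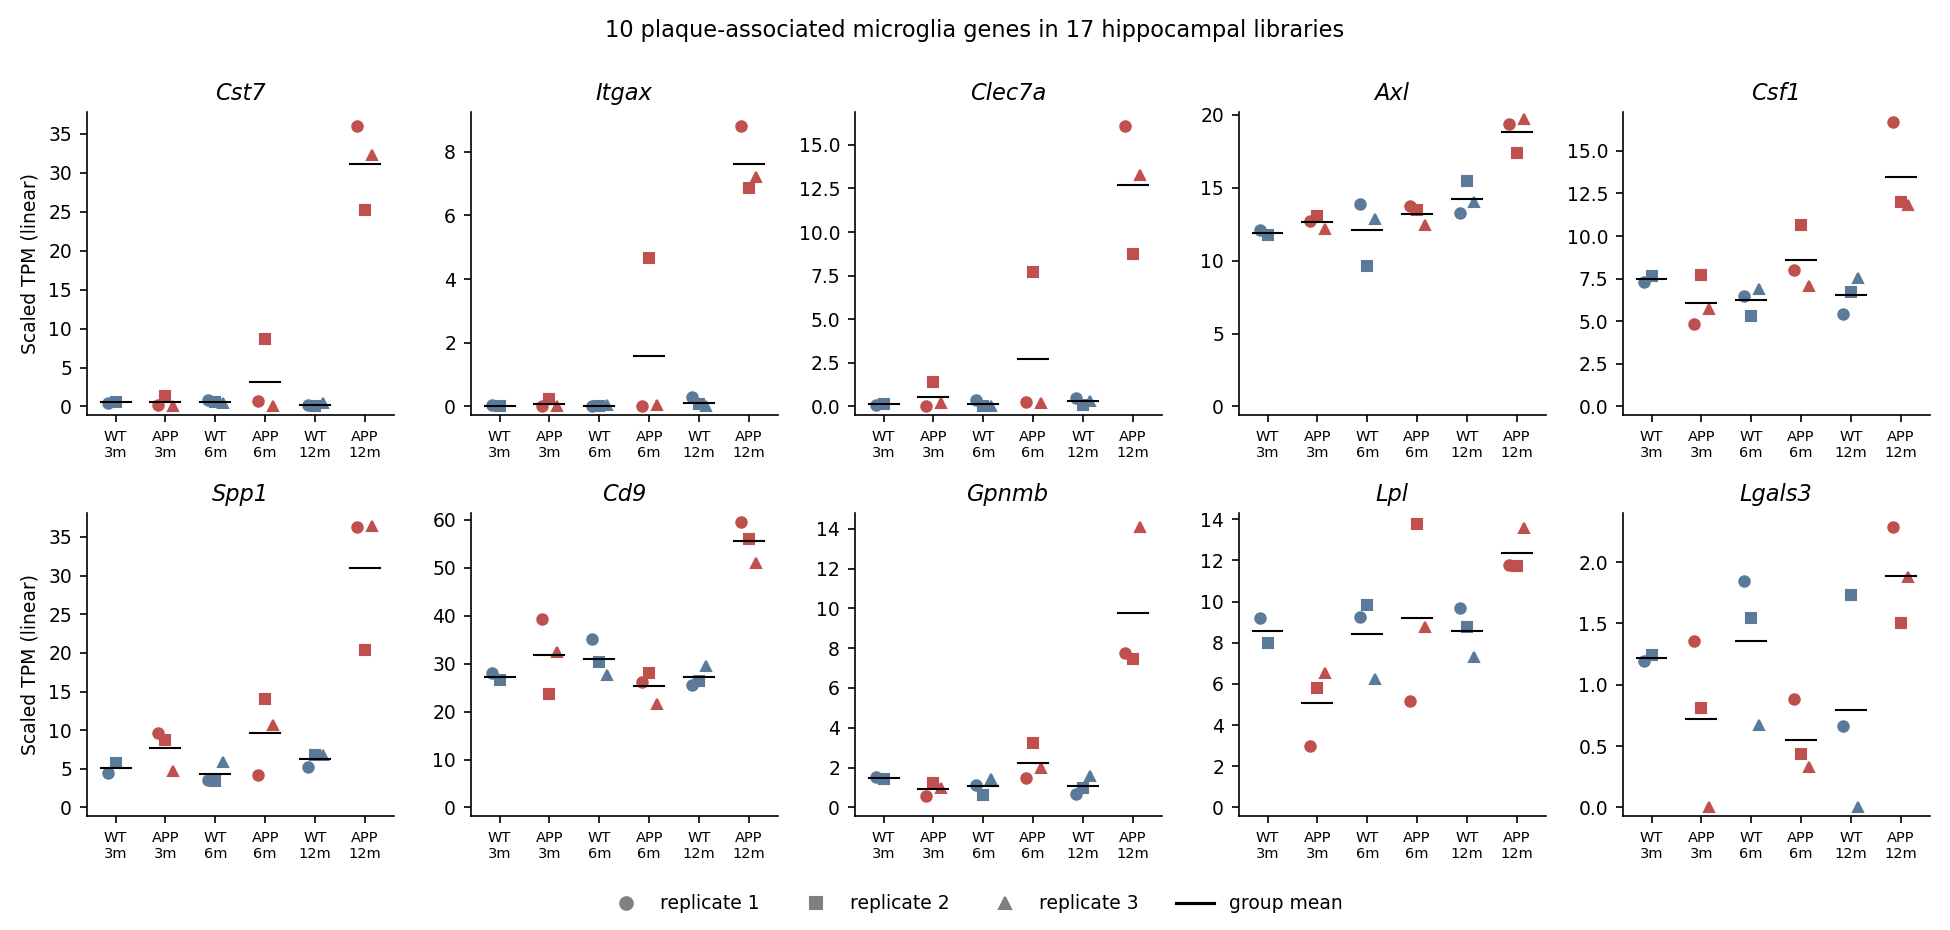
Scaled TPM (linear axis, 1 panel per gene) in each of the 17 mouse hippocampal libraries, grouped by genotype and age, with the marker shape giving the replicate and the bar the group mean. The 3 libraries of 12-month APP mice stand above the other 14 in 8 panels, and replicate 2 of the 6-month APP group stands above its 2 companions in all panels except those of Axl and Lgals3.

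Cst7 encodes cystatin F, an inhibitor of the lysosomal cathepsins that process other proteases. It lies on chromosome 2 from 150570415 to 150578944 (GRCm38, plus strand). In APP mice of 12 months its scaled TPM was 36.0, 25.3 and 32.2, and in WT mice of that age 0.240, 0.0 and 0.393. The average coverage behind these values was 32.5 to 43.2 in APP and at most 0.389 in WT, where the gene was close to undetected. The log2 change (on scaled TPM + 1, which understates changes of low genes) was 4.73 (SE 0.58, limma adjusted p 0.00131), and no WT library of any age exceeded 0.892. The proteases that cystatin F meets in the lysosome were measured beside it. Of 6 tested cystatins and cathepsins, 2 were called higher: Ctss, the cathepsin that trims the invariant chain of MHC class II, by 1.66 (limma adjusted p 0.00400), and Ctsc, which activates serine proteases, by 1.04 (0.0164). Over all genes tested 0.432% were called higher. Without APP replicate 1 the list of cystatins and cathepsins gave 1 call, and with any 1 library left out 1 to 2. Cst3, the abundant secreted cystatin C, differed by 0.03 (limma adjusted p 0.998), with 781 in APP and 759 in WT.

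Clec7a encodes Dectin-1, a receptor for fungal glucans that marks phagocytic microglia (chromosome 6, 129461591 to 129472779, minus strand; the annotation calls the gene a polymorphic pseudogene). Its level was 16.1, 8.77 and 13.3 in 12-month APP mice, and 0.492, 0.0958 and 0.293 in their WT counterparts. These groups were far apart, a change of 3.38 on the log2 scale (SE 0.57; limma adjusted p 0.0130). Syk and Card9, the kinase and adaptor through which Dectin-1 signals, were low in both genotypes and differed by 0.46 and 0.58 (limma adjusted p 0.717 and 0.595).

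Itgax encodes the integrin alpha chain CD11c (chromosome 7, 128129547 to 128150657, plus strand). It read 8.81, 6.86 and 7.22 in APP at 12 months, and 0.302, 0.0664 and 0.0 in WT. As for Cst7, the WT values are at the edge of detection, and the change was 2.95 (SE 0.46, limma adjusted p 0.00805). Itgb2, the beta chain with which CD11c pairs at the surface, went from 1.89 ± 0.361 in WT to 5.33 ± 1.21 in APP (SD, n = 3), a log2 change of 1.12 that was not called (limma adjusted p 0.132).

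Axl encodes a receptor kinase that recognises dying cells through the bridging ligands GAS6 and PROS1 (chromosome 7, 25757273 to 25788705, minus strand). Unlike the 3 genes above it was clearly expressed in every mouse library. In 12-month APP mice it was at 19.3, 17.4 and 19.7, and in WT at 13.3, 15.4 and 14.02, a ratio of group means of 1.32. The groups did not overlap, but the log2 change of 0.38 (SE 0.12) did not pass the test (limma adjusted p 0.318). Gas6 stood at 33.1 ± 0.758 in APP and 24.8 ± 3.11 in WT (SD, n = 3), and Pros1 at 8.58 ± 0.157 and 4.59 ± 0.972; neither was called (limma adjusted p 0.318 and 0.0735). The sister receptors Mertk and Tyro3 differed by 0.23 and -0.24 (limma adjusted p 0.835 and 0.902).

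Among the secreted signals, Csf1 encodes a growth factor on which microglia depend for survival and division (chromosome 3, 107741048 to 107760469, minus strand). It was at 16.7, 12.0 and 11.8 in APP at 12 months and at 5.41, 6.73 and 7.55 in WT. The group means differed 2.05-fold, a change of 0.93 on the log2 scale (SE 0.19; limma adjusted p 0.0374), the weakest of the 7 calls. Its receptor Csf1r, made by microglia, was higher by 0.93 (limma adjusted p 0.0128; 35.6 ± 2.39 in APP and 18.3 ± 2.12 in WT, SD, n = 3), and the receptor's second ligand Il34, made by neurons, differed by 0.01 (0.999).

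Spp1 encodes osteopontin, a secreted glycoprotein that binds CD44 and integrins (chromosome 5, 104435118 to 104441050, plus strand). APP mice of 12 months had 36.2, 20.4 and 36.5, and WT mice 5.18, 6.83 and 6.74. The means differed 4.96-fold and the log2 change was 2.105 (SE 0.35, limma adjusted p 0.0122). Of its receptors, Itgb5 was called higher by 0.90 (limma adjusted p 0.00805), whereas Itgav differed by -0.12 (0.982) and Cd44 by 0.83 (0.671). Gm42793, an unclassified gene on the same strand, shares exon bases with Spp1 and reached 0.119 at most in mouse.

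Lgals3 encodes galectin-3, a sugar-binding lectin that binds TREM2 (chromosome 14, 47367751 to 47386160, plus strand). It was low throughout the hippocampus: 2.29, 1.5 and 1.88 in 12-month APP mice and 0.663, 1.73 and 0.0 in WT. Here the genotypes overlapped, and the change of 0.79 (SE 0.35) was not called (limma adjusted p 0.671). Lgals3bp, a secreted glycoprotein that galectin-3 binds, differed by 1.33 without passing the test (limma adjusted p 0.0890).

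Gpnmb encodes a lysosomal and surface glycoprotein that is a target of the MiT/TFE factors, which control lysosome formation (chromosome 6, 49036546 to 49070929, plus strand). It was at 7.75, 7.47 and 14.1 in APP at 12 months and at 0.699, 0.997 and 1.56 in WT. The lowest APP library was far above the highest WT library, with a ratio of means of 8.995 and a change of 2.34 on the log2 scale (SE 0.26; limma adjusted p 0.000722). Transcripts of the factors themselves, Mitf, Tfe3 and Tfeb, differed by 0.40, 0.05 and 0.30 and were not called (limma adjusted p from 0.724 to 0.998).

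Cd9 encodes a tetraspanin that organises membrane complexes and is also made by oligodendrocytes and other cells (chromosome 6, 125460266 to 125494791, minus strand). It was the most abundant of the 10 in hippocampus, at 59.5, 56.1 and 51.1 in 12-month APP mice and 25.5, 26.4 and 29.5 in WT. The 2 groups were well separated, 2.05-fold apart, with a change of 1.01 on the log2 scale (SE 0.15; limma adjusted p 0.00763). Its membrane partners Cd81, Igsf8 and Ptgfrn differed by 0.25, 0.07 and 0.14 (limma adjusted p from 0.830 to 0.996). Oligodendrocyte markers summed to 962 to 1080 in APP and 858 to 884 in WT at this age, and their part in the Cd9 result was not tested. Gm26728 shares exon bases with Cd9 on the other strand and reached 0.432 at most in mouse. Use of strand in the counting is not stated, so reads of this overlap cannot be told apart.

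Lpl encodes lipoprotein lipase, which releases fatty acids from lipoproteins and is made by neurons as well as by activated microglia (chromosome 8, 68880491 to 68907448, plus strand). Its values in 12-month APP mice were 11.8, 11.7 and 13.6, and in WT 9.67, 8.75 and 7.29. The groups did not overlap but were close, 1.44-fold apart, and the change of 0.49 (SE 0.28) was not called (limma adjusted p 0.831). Lmf1, the chaperone that matures the enzyme, differed by 0.11 (0.981).

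**Figure D2:**
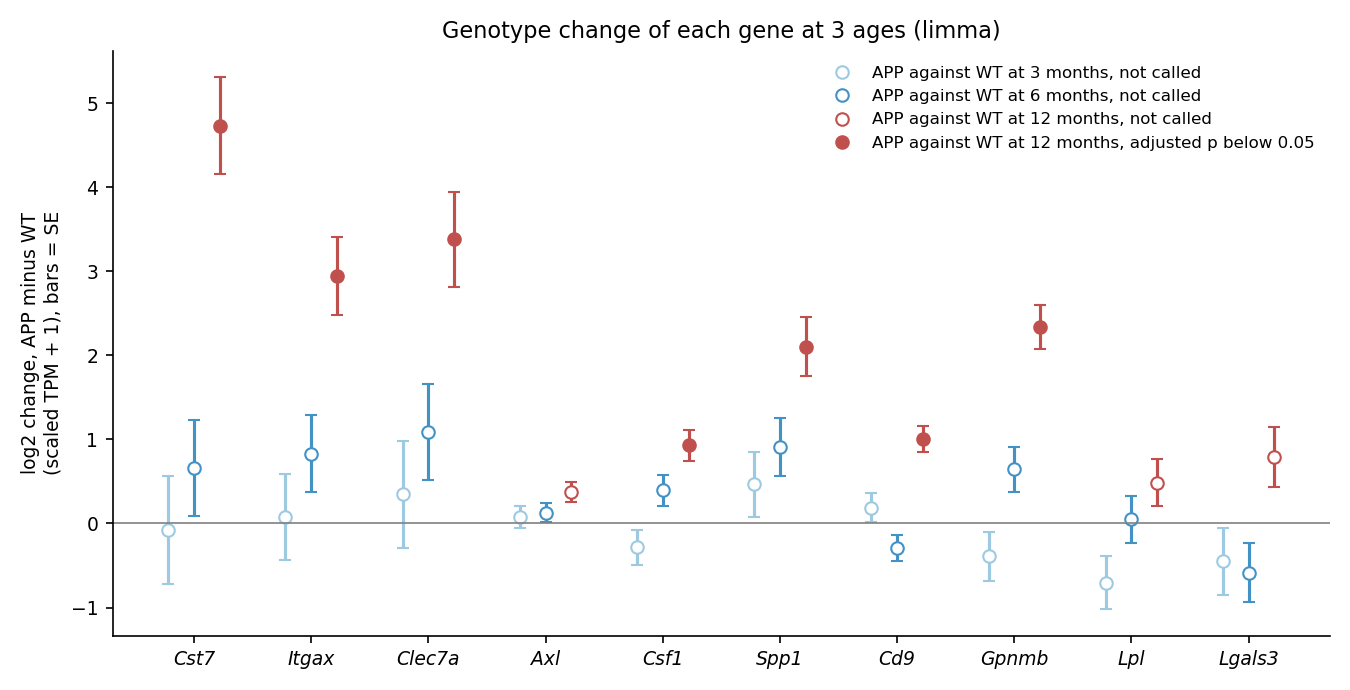
Log2 change of scaled TPM + 1 between APP and WT for each gene at 3, 6 and 12 months, with bars of 1 SE and filled points for an adjusted p below 0.05 (limma, 17 libraries in 1 fit). Filled points occur only at 12 months, from 0.93 for Csf1 to 4.73 for Cst7.

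The calls at 12 months differed in how far they rested on single libraries. Cst7 and Gpnmb were called when any 1 of the 6 libraries was left out (limma adjusted p at most 0.0130 and 0.00636). Without APP replicate 1 the other 5 calls were lost: Itgax and Cd9 to 0.059, Spp1 to 0.0930, Clec7a to 0.0956 and Csf1 to 0.232 (limma adjusted p). Csf1 lost its call whichever library was left out (0.0717 to 0.232). Clec7a also lost it without APP replicate 3 (0.0694), WT replicate 2 (0.0661) or WT replicate 3 (0.0578), and Spp1 without APP replicate 3 (0.0695) or WT replicate 1 (0.0718). A pseudocount of 0.1 in place of 1 ended the calls of Itgax, Clec7a and Csf1 (limma adjusted p 0.153, 0.110 and 0.0523). The Csf1 call also ended without the TPM filter (0.0601), with a replicate term in the fit (0.0692) and with only the groups of the contrast fitted (0.0897).

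Because 7 of the genes were called higher together at 12 months, the sequence before a transcription start is shown for 5 of the 10: Cst7, the gene with the largest change, and the 4 in which a searched motif was found. The windows are the 250 bases before a RefSeq start (GRCm38.p6), on the strand of the gene, 5′ to 3′. Capitals mark a match, on either strand, to GAGGAA (the core bound by PU.1, the factor that sets myeloid identity) or, in Itgax, to TGANTCA (AP-1).
Clec7a, chr6:129472780-129473029, minus strand: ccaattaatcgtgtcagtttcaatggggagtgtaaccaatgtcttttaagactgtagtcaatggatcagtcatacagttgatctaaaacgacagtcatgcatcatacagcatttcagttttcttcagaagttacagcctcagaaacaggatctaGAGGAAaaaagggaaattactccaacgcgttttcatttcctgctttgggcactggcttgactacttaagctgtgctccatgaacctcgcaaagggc
Axl, chr7:25788734-25788983, minus strand: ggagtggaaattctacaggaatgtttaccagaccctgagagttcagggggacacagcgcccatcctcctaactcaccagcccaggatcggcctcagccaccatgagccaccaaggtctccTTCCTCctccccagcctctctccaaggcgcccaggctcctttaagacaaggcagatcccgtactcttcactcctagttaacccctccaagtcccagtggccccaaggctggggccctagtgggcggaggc
Spp1, chr5:104434861-104435110, plus strand: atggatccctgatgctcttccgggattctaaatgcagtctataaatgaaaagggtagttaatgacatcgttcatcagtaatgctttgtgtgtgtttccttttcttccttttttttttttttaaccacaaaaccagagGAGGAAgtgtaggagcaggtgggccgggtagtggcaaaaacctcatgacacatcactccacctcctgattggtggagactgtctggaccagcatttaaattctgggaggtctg
Itgax, chr7:128129300-128129549, plus strand: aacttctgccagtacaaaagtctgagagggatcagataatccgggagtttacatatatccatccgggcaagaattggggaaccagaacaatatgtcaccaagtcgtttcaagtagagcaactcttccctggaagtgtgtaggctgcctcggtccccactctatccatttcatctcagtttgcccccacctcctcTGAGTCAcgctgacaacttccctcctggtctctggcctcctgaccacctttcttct
Cst7, chr2:150570165-150570414, plus strand: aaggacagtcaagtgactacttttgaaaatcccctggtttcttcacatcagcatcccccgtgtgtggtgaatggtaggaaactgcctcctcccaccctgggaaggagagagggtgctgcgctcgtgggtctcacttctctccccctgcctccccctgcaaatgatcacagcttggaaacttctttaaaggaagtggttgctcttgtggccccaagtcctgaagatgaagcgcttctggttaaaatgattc
The GAGGAA match begins 96 bases before the start in Clec7a, 130 in Axl (as TTCCTC, on the other strand) and 113 in Spp1. The AP-1 match of Itgax, TGAGTCA, begins 56 bases before the start.

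RefSeq promoters were matched for 9 of the 10 genes, 11 windows in all, Clec7a and Spp1 having 2 starts each. GAGGAA was present in 4 of the 11 windows, those of Clec7a, Axl and the first start of Spp1, against 23.3% of all 32851 mouse promoter windows of this length. Both Clec7a windows overlap and hold the same match, so these are 3 distinct matches in 3 of the 9 genes. TGANTCA occurred in 1 window (Itgax) and in 6.75% of all windows, and TTGCNNAA, the C/EBP core, in 1 (the second start of Spp1) and in 9.56%. The E-box CACGTG read by MiT/TFE factors matched none of the 11 windows, against 6.02% of all. Both strands were searched, none of the matches shown shares bases with another motif, and a match describes the letters only.

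At 3 months, which the study design places before detectable plaques, 0 of the 10 genes were called in either direction (limma). Of all genes 0.123% were called higher and 0.174% lower. Of the 10 genes 1 had an unadjusted p below 0.05, as had 2363 of all 17840 genes. The median change of the 10 was -0.00. Replicate 2 of the APP group had the highest Cst7 and Clec7a of the 5 libraries, 1.39 and 1.40, against at most 0.632 and 0.211 in the other 4. Lpl was lower in APP (2.96, 5.80 and 6.52) than in WT (9.18 and 7.995), without overlap, by 0.70 on the log2 scale (SE 0.31, limma adjusted p 0.345). The lowest of these values belongs to APP replicate 1, the library with few neuronal and many choroid plexus transcripts.

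At 6 months, which the study design places at the onset of plaques, 0 of the 10 were called (limma). Of all genes 0.387% were called higher and 1.04% lower. Of the 10 genes 3 had an unadjusted p below 0.05, as had 3010 of all 17840 genes. The spread within APP was wide, because replicate 2 stood apart from its companions. Its scaled TPM of Cst7 was 8.70, against 0.652 and 0.0 in replicates 1 and 3. Itgax read 4.66 in it, against 0.0 and 0.0554, and Clec7a 7.68, against 0.244 and 0.202. For 7 of the 10 genes this single library was above all 13 other libraries outside the 12-month APP group, and it was above those 13 for 9.37% of all genes tested. The library was singled out by its values of these same genes, so the count is a description and not a test. The 3 genes that did not follow were Axl (13.5), Cd9 (28.1) and Lgals3 (0.440). Lpl, at 13.8, was higher in it than in any other mouse library.

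The same library had a microglia marker sum (11 genes) of 206, against 115 and 106 in the other 6-month APP mice and at most 163 in any WT library. Its choroid plexus markers were the lowest of all mouse libraries, with a sum of 38.0 against 418 or more in the other 16, and Ttr, the main transcript of choroid epithelium, was at 26.7. The part of tissue composition in this library was not tested. Csf1 and Gpnmb separated the genotypes at 6 months without being called, and 11% of all genes tested were likewise higher without overlap. Csf1 was at 8.02, 10.6 and 7.06 in APP and 6.48, 5.29 and 6.89 in WT (log2 change 0.40, SE 0.19, limma adjusted p 0.296), and Gpnmb at 1.501, 3.26 and 2.00 in APP and 1.14, 0.629 and 1.41 in WT (0.64, SE 0.26, 0.231). Without APP replicate 1 of this age Spp1 was called (1.35, limma adjusted p 0.0405). With TPM as deposited 5 were called higher (Axl, Csf1, Spp1, Gpnmb and Lpl), but that scale shifted the median of all genes by 0.60 and called 10267 of 17840 genes higher.

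Within APP, from 3 to 12 months, 9 of the 10 genes were called higher, against 1.86% of all genes called higher and 1.49% lower (limma). Cst7, Itgax and Clec7a, which passed the TPM filter through the APP libraries, are among the 9. Lgals3 was higher in every 12-month library too, by 0.82, but was not called (SE 0.35, limma adjusted p 0.254). These libraries all had Xist. Of the 11 microglia markers 7 were called higher in this comparison (median log2 change 1.13, sums 114 to 121 at 3 months and 304 to 411 at 12), and 5 of 8 oligodendrocyte markers were called lower (median -0.81 by log2, sums 1374 to 2280 and 962 to 1080). Their part in the rise was not tested. The changes ran from 0.54 for Axl (SE 0.12, limma adjusted p 0.0230) and 0.81 for Cd9 (SE 0.15, 0.0115) to 4.46 for Cst7 (SE 0.58, 0.00143). Gpnmb rose by 2.45 (SE 0.26, limma adjusted p 0.000583), from 0.563, 1.25 and 0.967 to 7.75 or more in 2 of the 3 libraries and 7.47 in the third. Lpl, not called between genotypes, rose with age by 1.182 (SE 0.28, limma adjusted p 0.0332). Leaving out 1 library ended the call of Lpl in 5 of 6 cases (limma adjusted p from 0.0523 to 0.128), including APP replicate 1 at 3 months (0.115), and of Axl in 3, to 0.101 at most. Without APP replicate 1 at 12 months 5 of the 9 genes then tested were called, Spp1 and Cd9 being lost as well (0.0514 and 0.0581). Spp1 was also lost without replicate 3 of that age (0.0560). Fitting these 2 groups alone also left 5.

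From 6 to 12 months 5 genes passed the test, Cst7, Itgax, Spp1, Cd9 and Gpnmb, where 0.51% of all genes were called higher and 0.0224% lower (limma). The changes were 3.66, 2.24, 1.68, 1.11 and 1.71 (limma adjusted p 0.0127, 0.0442, 0.0452, 0.00804 and 0.0113). Of these 5 genes, Cst7 and Itgax passed the TPM filter through the APP libraries. All 10 except Lpl were higher in every 12-month library than in every 6-month library, which 10.8% of all genes were. Single libraries decided the number of calls, which was 0 without APP replicate 1 at 12 months or without APP replicate 3 at 6 months, and 6, with Clec7a added, without replicate 2 at 6 months. Fitting the 2 groups alone gave 0. From 3 to 6 months 0 of the 10 were called (limma; 3 at an unadjusted p below 0.05, as were 3339 of all 17840 genes), against 1.07% of genes higher and 1.09% lower. These 3 comparisons of ages share libraries and are not independent of each other.

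WT mice showed no called change from 3 to 12 months in any of the 10 (limma; 0 at an unadjusted p below 0.05), where 0.0336% of genes were called higher and 0.028% lower. The median change was -0.01, and the extremes were -0.42 for Lgals3 and 0.25 for Spp1. The 3-month WT libraries have Xist and those of 12 months do not, which cannot be told apart from age.

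Whether the genotype change itself was larger at 12 than at 3 months was tested as a difference of differences. It passed for 1 gene, Gpnmb, with a difference of 2.73 (SE 0.39, limma adjusted p 0.0101), against 0.0392% of all genes called higher and 0.0336% lower. All 10 differences were above 0, with a median of 1.44, and 9 had an unadjusted p below 0.05, as had 1781 of all 17840 genes. The 9 include Cst7, Itgax and Clec7a, which passed the TPM filter through the APP libraries. For Cst7 the difference was 4.81 (SE 0.86, limma adjusted p 0.0621) and for Csf1 1.21 (SE 0.28, 0.146). The Gpnmb call was lost without either of the 2 WT libraries of 3 months (0.0530 and 0.0565). Of the groups compared, only the WT libraries of 12 months lacked Xist, which cannot be told apart from the difference of genotype changes.

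Other genes of the same microglial state were also called higher at 12 months. Of 24 tested genes from a list of 30, 10 were called higher and 0 lower (limma), with a median log2 change of 0.55, against 0.00 over all genes. The shares over all genes tested were 0.432% higher and 0.0224% lower. Of the 30, 8 were under 1 in every 12-month WT library and 2 in every 12-month APP library. The filter uses the mean of all mouse libraries, so a low gene can pass it through the APP libraries. Ccl6, for example, was at 0.714 in WT and 11.1 in APP on average at 12 months. Among the called genes the largest changes were those of the chemokine Ccl6 (2.80), the TREM2 adaptor Tyrobp (2.09), lysozyme Lyz2 (1.99), the surface antigen Cd52 (1.99), the lysosomal glycoprotein Cd68 (1.84), the cathepsins Ctsz (1.54) and Ctsd (1.46), and Mamdc2 (1.28), with limma adjusted p from 0.000886 to 0.0289. Trem2 itself was at 17.04 in APP and 4.99 in WT on average, a change of 1.59 that did not pass (SE 0.44, limma adjusted p 0.230). Apoe, the lipid carrier ligand of TREM2, differed by 0.55 (0.839). The partner list of the 10 genes gave 2 calls of 22 tested, Csf1r and Itgb5, with a median of 0.41. These lists were measured in the same libraries as the 10 genes, and without APP replicate 1 the first list gave 3 calls and the second 1. With any 1 library left out the partner list gave 0 to 2 calls and the first list 3 to 6.

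**Figure D3:**
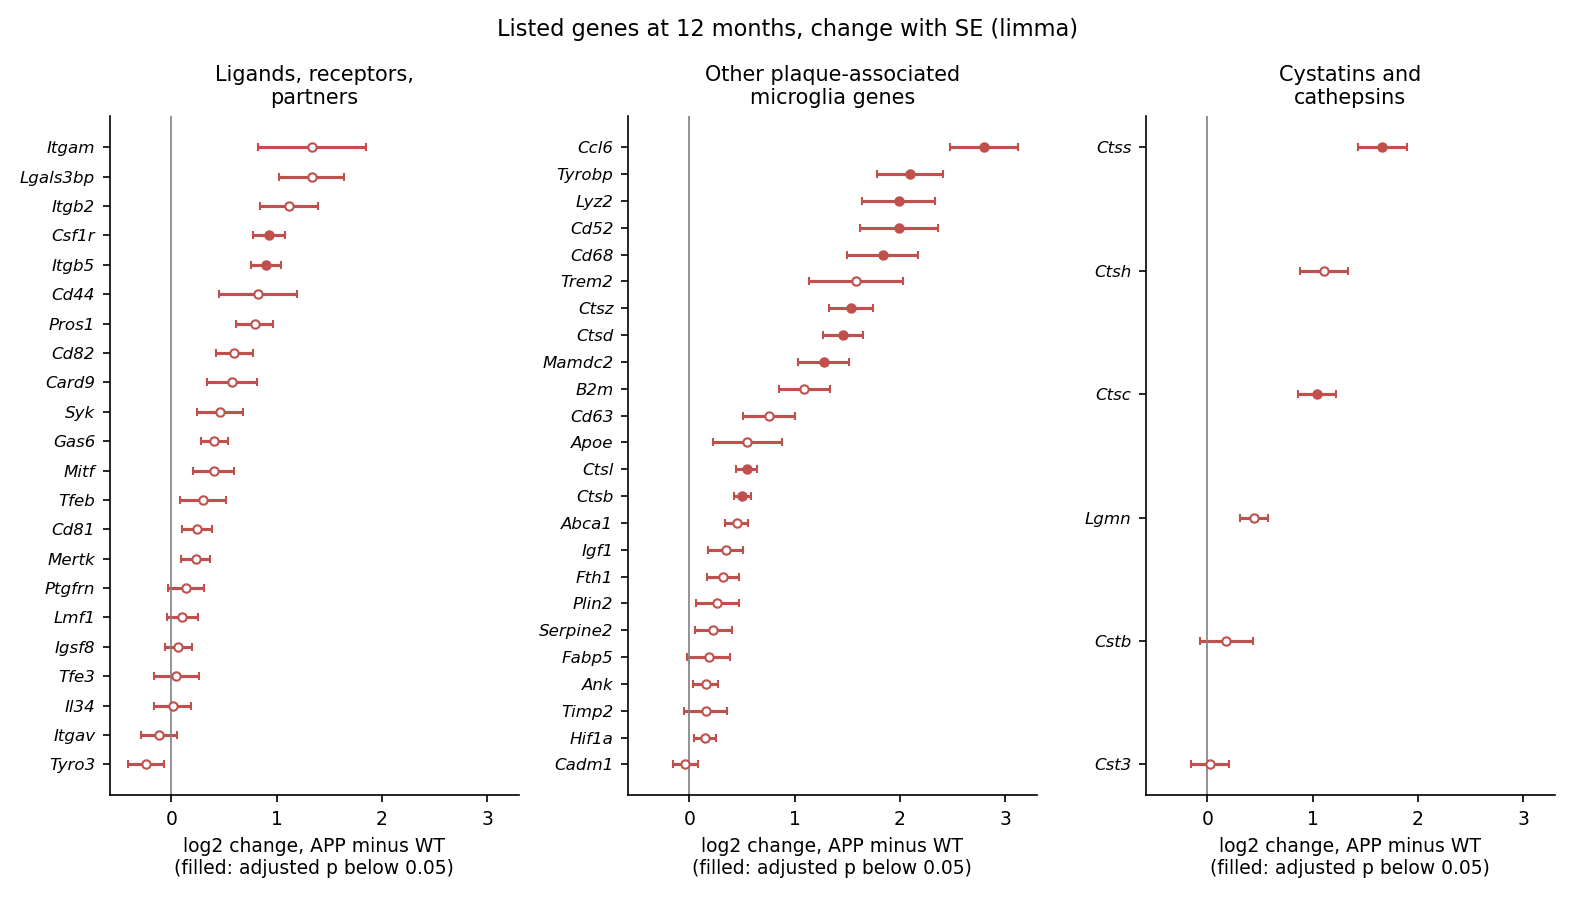
Log2 change between APP and WT at 12 months, with bars of 1 SE, for the tested genes of 3 lists, sorted by size within each panel, with filled points for a limma adjusted p below 0.05. Ccl6 (2.80) and Tyrobp (2.09) lead the other plaque-associated genes, whereas Il34 (0.01) and Cst3 (0.03) lie near 0.

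Of 12 tested genes of resting microglia, 4 were called higher at 12 months and 0 lower (limma), with a median log2 change of 0.30. Over all genes tested 0.432% were called higher. Among the 4 were Fcrls, an Fc receptor-like gene (1.73), the receptor Gpr34 (0.97) and Olfml3 (0.83), with limma adjusted p 0.00243, 0.0339 and 0.0448. Leaving out 1 library left 1 or 2 calls on this list, and 1 without APP replicate 1. P2ry12, the purine receptor that guides microglial processes, was at 19.9 in APP and 19.4 in WT (log2 change 0.04, SE 0.17, limma adjusted p 0.998). Tmem119 differed by 0.26 (0.831) and the fractalkine receptor Cx3cr1 by -0.18 (0.992). General markers of microglia and macrophages summed to 304 to 411 in APP at 12 months and 130 to 163 in WT. Of these 11 markers 6 were called higher, C1qa among them (1.72, limma adjusted p 0.0192). P2ry12, Tmem119 and Cx3cr1 are also on this list and were not called. In bulk tissue more microglia and more RNA per microglial cell cannot be told apart. The number of calls among these 11 markers fell to 1 without APP replicate 1, and to 0 at the lowest when 1 library was left out.

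**Figure D4:**
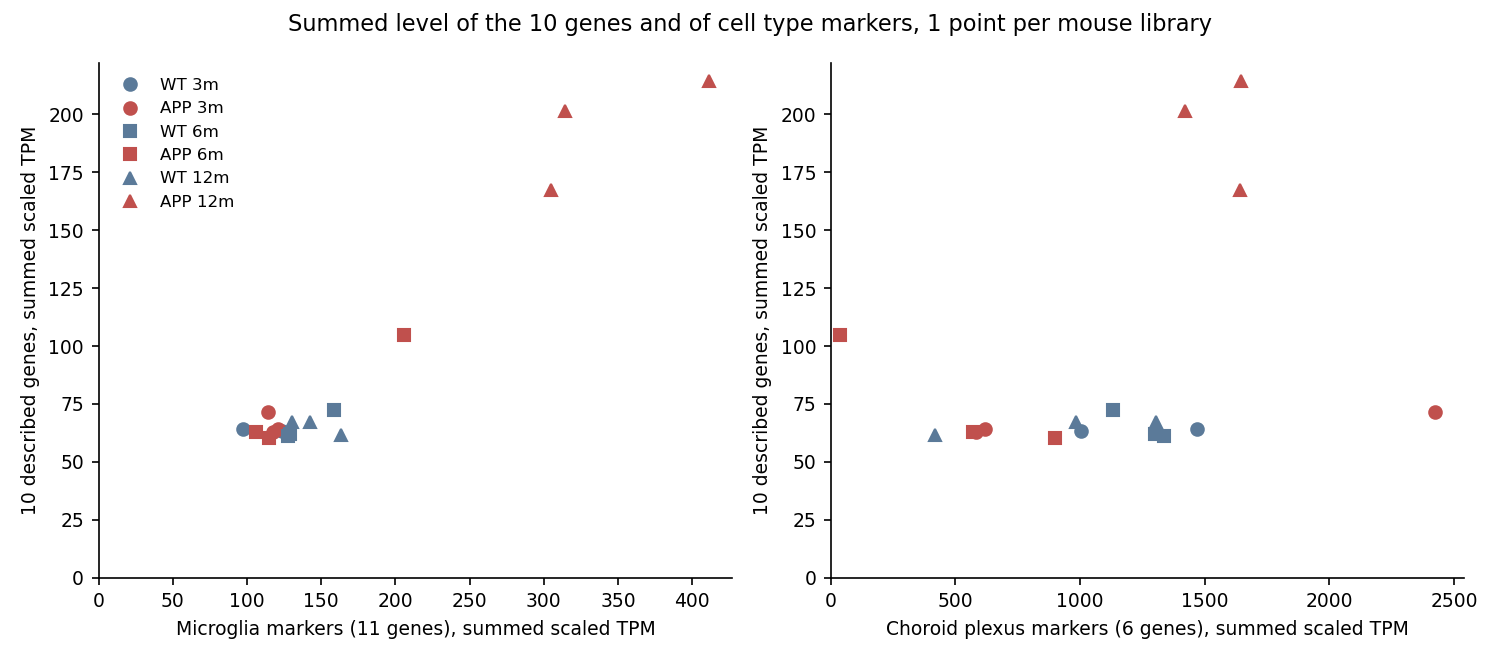
Summed scaled TPM of the 10 genes against the summed scaled TPM of 11 microglia markers (left) and of 6 choroid plexus markers (right), 1 point per mouse library, with colour for genotype and shape for age. The 3 libraries of 12-month APP mice (167 to 214 on the vertical axis) and replicate 2 of the 6-month APP group (105) have the highest sums of microglia markers, and that last library has the lowest sum of choroid plexus markers.

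Markers of other cells that can carry these transcripts gave the following sums in 12-month APP and WT mice. Border macrophage markers (7 genes) ran from 5.10 to 12.7 and from 5.44 to 11.3, and monocyte and granulocyte markers (8 genes) from 0.0308 to 0.344 and from 0.113 to 0.612. All 8 of the latter were under 1 in every mouse library, and Plac8, Chil3 and Ly6g were listed at 0 in all 17. Lymphocyte and dendritic cell markers (10 genes) ran from 5.40 to 6.37 and from 6.02 to 6.83, with Cd3d and Ms4a1 at 0 throughout. Astrocyte markers (7 genes) summed to 1488 to 1664 in APP, against 1118 to 1162, and 1 of the 7 was called, Gfap, by 2.04 (limma adjusted p 0.00627). Choroid plexus markers reached 1421 to 1644, against 418 to 1304, endothelial and mural markers 31.7 to 38.2, against 21.8 to 25.8, and fibroblast markers 37.8 to 71.8, against 41.6 to 65.4. The part of the astrocyte, choroid plexus and endothelial differences in the results was not tested.

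Across the 17 mouse libraries each gene was set against the mean standardised profile of the other 9, as a description. Pearson's r was 0.97 for Cst7, 0.96 for Itgax, 0.95 for Clec7a and 0.94 for Gpnmb, between 0.76 and 0.89 for Csf1, Spp1, Axl and Cd9, and only 0.58 for Lpl and 0.41 for Lgals3. The 10 other genes whose levels followed the mean profile most closely were Ctsz (r = 0.98), Ctss, Ccl6, Mpeg1, AU020206, Gfap, Tyrobp, Csf1r, Itgb5 and Fcgr2b (0.95). All are values over the same 17 libraries, which share the jump in the 12-month APP group. Mpeg1, a pore-forming protein of phagocytes, was at 30.8 ± 2.19 in APP and 7.82 ± 0.721 in WT at 12 months (SD, n = 3) and at 22.6 in replicate 2 of the 6-month APP group. Gfap, the filament protein of reactive astrocytes, marks another glial type.

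In HT-22 cells the 10 genes took other levels. Itgax and Clec7a were listed at 0 in all 14 libraries and Cst7 reached 0.632 at most, while Lgals3 (121 to 292), Csf1 (79.6 to 578), Axl (77.5 to 198) and Spp1 (36.4 to 111) had the highest maxima of the 10. These values were scaled apart from those of the mouse, so the 2 systems were not tested against each other. Cd9 ran from 35.4 to 49.8, Gpnmb from 7.71 to 12.4 and Lpl from 4.78 to 7.36. Among the receptors of these secreted proteins Csf1r was at 0.373 or less, and Cd44 at 23.8 to 120. Of the 11 microglia markers 6 were listed at 0 in every library and 10 stayed under 1, the remaining gene being Tmem119.

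In HT-22 cells 3 libraries stood apart from the other 11: replicates 3 and 4 of Aβ42 with scramble LNA and replicate 4 of the reversed peptide with scramble LNA. For Csf1 the 3 values were 549, 578 and 441, against 79.6 to 112 in the other 11. Axl was at 196, 198 and 191, against 77.5 to 92.7, and Spp1 at 92.9, 111 and 105, against 36.4 to 55.8. For Lgals3 they were 292, 275 and 269, above the 121 to 200 of the rest, and for Gpnmb 8.56, 7.71 and 7.76, below its 8.59 to 12.4. Thus 4 of the 10 genes were higher in all 3 than in the other 11, as were 15.9% of all genes tested, and 1 was lower, as were 11.6%. Tmem119 and Cd44 followed the same split, at 53.2 to 54.8 against 6.57 to 13.7 and at 101 to 120 against 23.8 to 29.8. All 3 received the scramble LNA, and both peptides are among them.

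**Figure D5:**
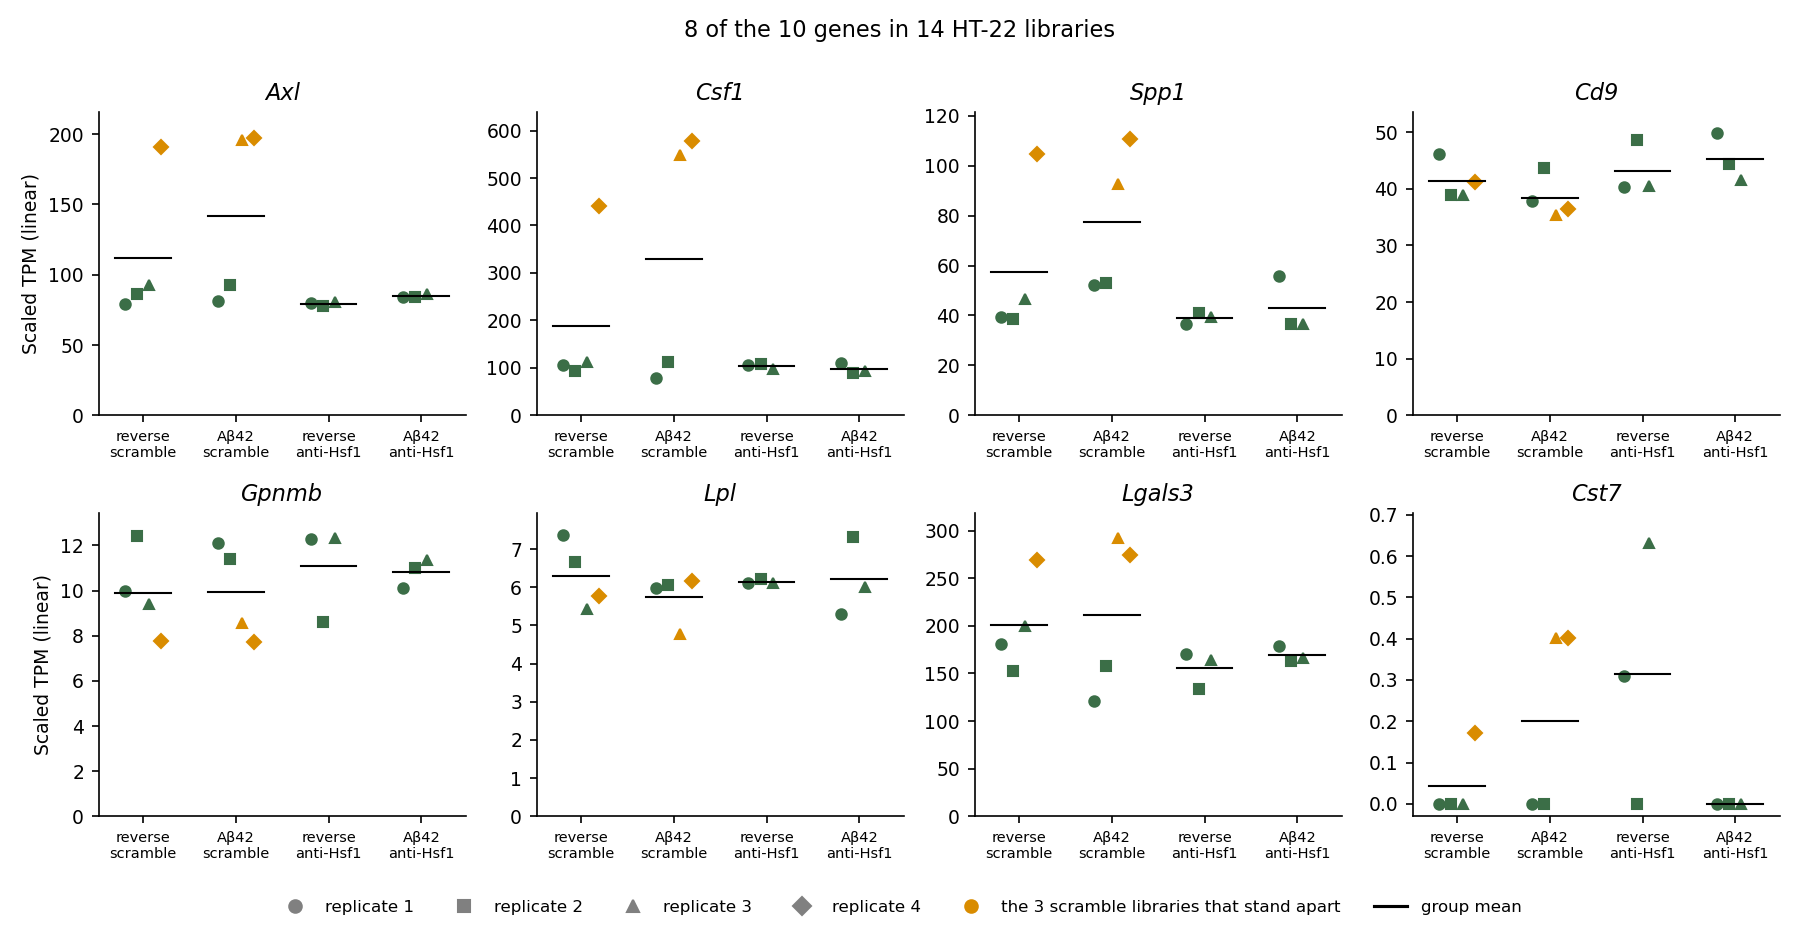
Scaled TPM (linear axes from 0) of 8 of the 10 genes in each of the 14 HT-22 libraries by treatment, with the marker shape giving the replicate, the bar the group mean and orange the 3 scramble libraries that stand apart. Those 3 are the highest values in the panels of Axl, Csf1, Spp1 and Lgals3, and the other 11 lie below them.

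Of the 7 genes that passed the filter in HT-22 cells, 0 were called in any of the 4 comparisons (limma). Aβ42 against the reversed peptide gave 0.0% of all genes as called with either LNA, with 0 of the 7 at an unadjusted p below 0.05 in both. With the scramble LNA the changes ran from -0.11 for Lpl to 0.63 for Csf1 (SE 0.62, limma adjusted p 0.952), and with the anti-Hsf1 LNA from -0.10 for Csf1 (SE 0.71) to 0.12 for Lgals3 (SE 0.29). In the latter pair Axl was at 84.3, 84.2 and 86.7 with Aβ42 and 79.9, 77.5 and 80.5 with the reversed peptide, without overlap, as were 9.07% of all genes tested in that direction. That change was 0.10 (SE 0.36, limma adjusted p 1.0). Anti-Hsf1 against scramble LNA gave 0.0% of genes called with the reversed peptide, and 0.0231% called higher and 0.0% lower with Aβ42. With Aβ42 the largest changes of the 7 were -1.24 for Csf1 (SE 0.67, limma adjusted p 0.565), -0.78 for Spp1 (SE 0.34, 0.554) and -0.62 for Axl (SE 0.33, 0.566), and 1 of the 7 had an unadjusted p below 0.05, as had 1555 of all 17291 genes. The scramble groups hold the 3 libraries that stand apart; without them 0 of the 7 were called in all 4 comparisons, a check chosen after seeing the data. With TPM as deposited 6 of the 7 were called lower with anti-Hsf1 LNA and Aβ42, on a scale that shifted the median of all genes by -0.62 and called 8766 of 17291 genes, of which 26 were higher.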

How the data were processed

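Long RNA was sequenced from 17 mouse hippocampi (6 groups) and 14 HT-22 samples (4 groups), 31 of the 62 libraries of the series. The short-RNA libraries and B2 count tables were not used. Per the labels' protocols, RNA was fragmented, depleted of ribosomal RNA and made into NEBNext Ultra libraries. The labels do not state whether strand was kept. The deposited gene tables hold TPM, FPKM and coverage, per the file headers. FastQC, cutadapt 1.18, BWA 0.7.17, HISAT2 2.1.0, bedtools 2.26.0 and StringTie 1.3.4d, with mm10 and GRCm38, are named without roles, per the submitters' processing notes. TPM as deposited by the authors was summed per gene identifier and divided by a median-of-ratios factor, from 20713 genes above 0 in every mouse library and 16878 in every HT-22 library, separately for each system. The ratio of deposited coverage to deposited FPKM served as a relative depth, and no read counts entered.

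The main test was limma 3.58.1 (R 4.3.3, trend and robust) on log2(scaled TPM + 1), for genes of mean TPM of at least 1, with 1 fit of all groups per system and Benjamini-Hochberg adjustment over all genes tested (17840 and 17291). A gene was called at an adjusted p below 0.05. Simulated data with known changes tested the fits first. Tables and plots used Python 3.11.15, pandas 2.3.3, numpy 2.4.6 and matplotlib 3.10.9. The text names every member, genes of the lists by size of change or by their known link to a member, and the 10 genes most correlated with the members' mean profile. Alternatives were TPM as deposited, quantile normalisation, a pseudocount of 0.1, no filter, a replicate block, only the groups of the contrast, each library left out and, added after seeing the data, the HT-22 fit without 3 libraries. The members and lists were chosen with earlier results of these data known. An exact 0 can be a failed estimate. Values of some listed genes are not reported here.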

Additional observations from a re-analysis of the deposited data

Results flagged for a closer look

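Dixon's ratio was computed for the 16 combinations of gene and 4-library HT-22 group, and 5 exceeded its 95% critical value for 4 values. Chance gives about 1 in 20 for a single group, but these combinations share libraries and are not independent. The share over all genes is not given here. With scramble LNA and the reversed peptide, replicate 4 was far above the other 3 libraries for Csf1 (441), Axl (191) and Spp1 (105). It is 1 of the 3 libraries that stood apart, which were above the other 11 for 15.9% of all genes tested. For Cst7 the other 3 were listed at 0, so that any value above 0 in the fourth exceeds the limit, and its 0.171 lay below the highest HT-22 value of 0.632. With scramble LNA and Aβ42, 1 library was below the others for Lpl (4.78, in a group with a median of 6.01 and a maximum of 6.17). Gpnmb had a larger genotype change at 12 than at 3 months, with a tested difference of 2.73 on the log2 scale (limma adjusted p 0.0101). That call was lost without either WT library of 3 months (limma adjusted p 0.0530 and 0.0565). Only the WT libraries of 12 months lacked Xist, which cannot be told apart from this difference.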

How the results depend on the processing

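Members called, out of 10 in mouse and 7 in HT-22 cells, moved by over 1.5 times as follows. With TPM as deposited the count was 5 for genotype at 6 months (0 in the main analysis), 3 for the difference of genotype changes (1), 3 for APP at 6 against 3 months (0), 2 for APP at 12 against 6 months (5), 1 for Aβ42 with anti-Hsf1 LNA (0) and 6 for anti-Hsf1 LNA with Aβ42 (0). On that scale Cd9 reversed to -0.51 in the first of these HT-22 comparisons, and Cd9 to -0.47 and Lpl to -0.51 in the second. A pseudocount of 0.1 gave 4 for genotype at 12 months (7) and 2 for APP at 12 against 6 months. The last comparison gave 3 with quantile normalisation, 3 with no filter and 0 with only its groups fitted. Fitting only the groups of the contrast gave 4 for the difference of genotype changes and 5 for APP at 12 against 3 months (9). Smaller shifts were 6 for genotype at 12 months with no filter or only its groups fitted, and 8 for APP at 12 against 3 months with TPM as deposited or no filter. The cause of these shifts was not tested.

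With 1 library left out, the counts ran from 2 to 6 for genotype at 12 months, 0 to 1 at 6 months, 0 to 1 for the difference, 0 to 6 for APP at 12 against 6 months and 5 to 9 at 12 against 3 months, and stayed at 0 in the other comparisons. Without APP replicate 1 at 12 months 9 of the genes were tested.

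Replicate numbers were not taken as pairs in the main fit (correlations of same-numbered deviations from -0.217 to 0.575, never all above 0.1 in a comparison). The same number was the best match throughout some comparisons, such as APP at 6 against 3 months (0.228, 0.160 and 0.064). It was never the best match in others, such as genotype at 12 months. With the replicate block the count was 3 for APP at 12 against 6 months and 6 for genotype at 12 months.

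Over all genes, TPM as deposited called 10339 at 6 months (255 in the main analysis, of which 69 higher, against 10267) and 1270 for APP at 6 against 3 months (386). It moved the median of all genes by 0.60 and 0.26 there, by 0.12 at 12 months, and by -0.52 and -0.62 in the HT-22 comparisons above, where 4197 and 8766 genes were called (0 and 4). Fitting only the groups of the contrast called 1 gene for APP at 12 against 6 months (95) and 152 at 12 against 3 months (597).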
